A study of Mus musculus with 8 samples.

Results

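Alternative first and last exon events in neonatal mouse epidermis were examined for their response to loss of ESRP1, an epithelial RNA-binding protein that regulates splicing. The events were every entry of the authors' junction table whose class was alternative first exon (AFE), putative alternative first exon (pAFE), alternative last exon (ALE) or putative alternative last exon (pALE). They came to 172 of the 501 events in the table and 304 of its 1203 junction entries, and lay in 133 of its 236 genes. By class there were 64 AFE, 41 pAFE, 50 ALE and 17 pALE events.

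RNA was taken from back-skin epidermis of pups at postnatal day 5, in 4 control and 4 experimental libraries that the labels call biological replicates. Controls carried homozygous floxed Esrp1 and homozygous null Esrp2 alleles and no Cre. Experimental pups carried the same alleles plus the K5rTA transactivator, named for keratin 5, and a tetO-driven Cre, so that deletion depended on doxycycline. Dams of both groups ate doxycycline chow from embryonic day 17. Esrp2 was therefore null throughout, and the comparison was of the added loss of Esrp1 together with the transgenes. Libraries are numbered 1 to 4 within a group by their order in the expression table.

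A gene can start transcription at more than one promoter, each with its own first exon spliced to a shared downstream exon, and can end in more than one last exon with its own cleavage and polyadenylation site. A different first exon can change the 5′ untranslated region or the N terminus of the protein, and a different last exon can change the C terminus or the 3′ untranslated region. ESRP1 and ESRP2 are best known for switching internal cassette exons between epithelial and mesenchymal forms, as in Cd44 and Ctnnd1. MAJIQ estimates PSI (percent selected index, here a fraction), the share of reads at a reference exon that use a given junction. In each pair the table names a proximal and a distal junction, the proximal alternative exon being the one nearer to the shared exon.

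The expression table holds TPM, a length-normalized share of transcripts, and lists values at or under 1 TPM as 0. These values give no sequencing depth. Esrp1, itself the gene of 1 AFE event, stood at 135, 131, 133 and 162 TPM in controls. Experimental libraries held 65.0, 49.8, 75.6 and 66.5 TPM, with no overlap. Its level fell by 1.13 ± 0.17 on the log2(TPM + 1) scale (SE; adjusted p = 0.0112, limma). Esrp2, null by the labels in both groups, was at 3.07, listed at 0, 2.14 and 3.31 in controls and at 4.98, 3.25, 5.28 and 4.22 TPM in experimental libraries, and did not pass (adjusted p = 0.176, limma). The 12 keratinocyte markers were above 1 TPM in all libraries and the 5 endothelial markers were listed at 0 in all. Lum, Pdgfra and Pdgfrb among the fibroblast markers and Adipoq, Cidec and Plin1 among the adipocyte markers were also listed at 0 throughout. Hair follicle markers summed to between 5591 and 43740 in controls and between 1357 and 10485 TPM in experimental libraries. Immune markers summed to between 143 and 551 in controls against 194 to 410 TPM in experimental libraries, and melanocyte markers to between 60.4 and 150.0 against 34.9 to 83.8 TPM. Erythroid markers summed to between 116 and 6381 in controls and between 147 and 2814 TPM in experimental libraries. Muscle markers summed to between 19.02 and 23.09 in controls and between 12.85 and 18.25 TPM in experimental libraries, without overlap. Among them Ckm, Myh1, Myh4 and Tnnt3 were listed at 0 in all libraries. The part of these cells in the results was not tested. Mitochondrial transcripts took 18.2% and 17.5% of the listed TPM in experimental libraries 2 and 4 and between 10.6% and 12.6% in the others.

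The sequences across the splice junctions of 7 paired events show what each choice of exon puts into the RNA. The first 5 lie in genes whose level also changed or whose switch was among the larger ones. Haus8 and Cd200 are the ALE pairs in which both junctions are annotated and each alternative exon is the last exon of some annotated transcript. Arhgef28, Lmo7, Haus8 and Cd200 were chosen after their values were seen. Each line gives 30 bases of annotated transcript, 5′ to 3′, on the build GRCm38. Capitals mark the 15 bases of the alternative exon and lower case the 15 bases of the shared exon.
Smarcd3 proximal (chr5:24598803-24601781, minus strand): CTGGTCCATGGGGTGcgccccgggatgccg
Smarcd3 distal (chr5:24598803-24622524, minus strand): ACCACCGTGGTACAGcgccccgggatgccg
Arhgef28 proximal (chr13:97996933-98016015, minus strand): GGGCATCCAAGAAAGatcgctcctttgatg
Arhgef28 distal (chr13:97996933-98029377, minus strand): ACCGCCTACCTCTGGatcgctcctttgatg
Lmo7 proximal (chr14:101840590-101840872, plus strand): CTTGTCCTATAACAGgataacataaatgtt
Lmo7 distal (chr14:101807523-101840872, plus strand): CCAATAGCAGGTTTGgataacataaatgtt
Zfp385a proximal (chr15:103320400-103323391, minus strand): CCAGGGCCTCGCAGGatggaccctgtacag
Zfp385a distal (chr15:103320400-103333065, minus strand): AGCAACTACAGCACAatggaccctgtacag
Icmt proximal (chr4:152297914-152298685, plus strand): CAGGGATGGGGCAGGatagccatcagagct
Icmt distal (chr4:152297568-152298685, plus strand): CCGCCGCGCTACCAGatagccatcagagct
Haus8 proximal (chr8:71260510-71263052, minus strand): aagaaagcaaaaaagAGGGTCACCTGCCCT
Haus8 distal (chr8:71257425-71263052, minus strand): aagaaagcaaaaaagGTTTCTGGAGCGGCC
Cd200 proximal (chr16:45407311-45408856, minus strand): aggatgggcagtctgACTGGAGTGTTCCCT
Cd200 distal (chr16:45397295-45408856, minus strand): aggatgggcagtctgTGGAAGTGGTGACCC

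The class names covered several kinds of event. Of the 172 events, 82 set a pair of different spliced junctions against each other, 49 set a spliced junction against a retained intron at the same reference exon, 35 had a single junction with a value, and 6 listed the same junction in both entries. Pairs made up 62 of the 105 first exon events (59.0%) and 20 of the 67 last exon events (29.9%), while junction-against-intron events made up 19 (18.1%) and 30 (44.8%). An entry that MAJIQ marks as de novo, absent from the annotation, was part of 57 first exon and 44 last exon events. Such an entry can be a spliced junction or a retained intron.

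**Figure D1:**
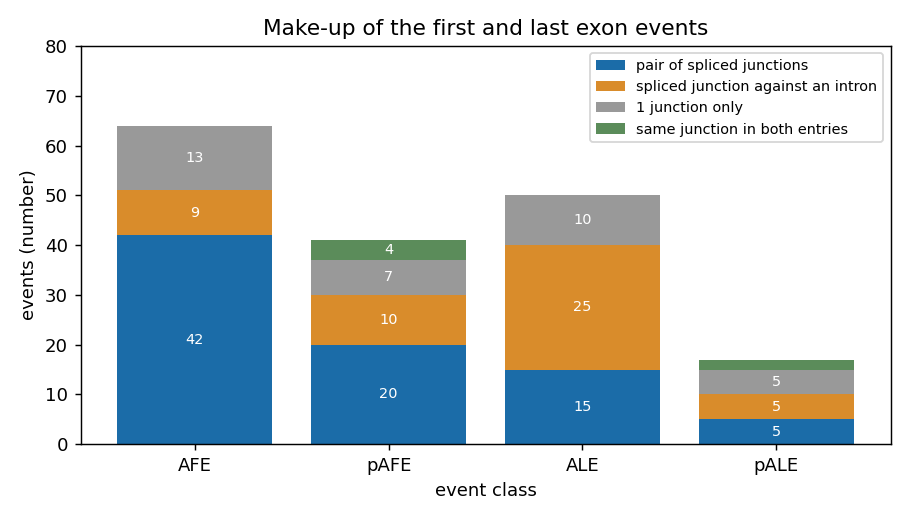
Number of events (vertical axis) in each of the 4 event classes (horizontal axis), stacked by the kind of event. Pairs of spliced junctions are 42 of 64 AFE events, whereas 25 of 50 ALE events set a spliced junction against an intron.

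An event was called when, among its own entries, the junction of largest change had a posterior probability of at least 0.95 that PSI differed by at least 0.15. By that rule the authors' deposited table held 138 called events of 169 with a value (81.7%), beside 87.8% of the 311 events of other classes and 86.5% of those with their intron entries left out. The intron values given here come from entries of other classes at the same reference exon and did not enter the rule. Counting them gave 142 of 171 (83%), adding Esrp1 AFE, 2310002F09Rik pAFE, Tspear ALE and BC049352 ALE, an alternative added after seeing the data. The share called was near that of the other classes and is not a result about these exons. These are shares of the events that the authors list, not of all first and last exons in epidermis. Called events numbered 83 of 104 in the first exon classes and 55 of 65 in the last exon classes. In the authors' deposited table the median absolute expected difference, E(dPSI), of called events was 0.354 and 0.317. Closest to the threshold, in the authors' deposited table, were Prdm11 pAFE (probability 0.933, not called) and Dnajc17 AFE (0.951, called). PSI is given by MAJIQ per group, so these values have no error over libraries and no test of their own.

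Neither end of the transcript moved one way. Taking every called event with a distal entry, distal PSI was higher in the experimental group in 52 and lower in 62. That count includes junction-against-intron events, in which a lower distal entry does not mean more use of a proximal exon. It also counts some junctions under several events, as in Zdhhc6. In the 77 called pairs, a kind of event singled out after the values were seen, E(dPSI) was above 0 for the distal and below 0 for the proximal junction in 41, and the reverse held in 31. Both junctions passed the threshold in 28 of the 41 and 24 of the 31. In the other 5 pairs the signs were not opposite: both values were below 0 in Zdhhc6 and Gm16867, both above 0 in Gm50222, and one was 0 in Stfa3 and 6430550D23Rik. Only Zdhhc6 among these 5 had both junctions past the threshold. For first exon pairs the counts were 32 distal and 24 proximal of 58, and for last exon pairs 9 distal and 7 proximal of 19. The more used form of the pair changed between the groups in 28 of 62 first exon pairs and in 8 of 20 last exon pairs. The alternative splice sites lay between 194 and 93675 bases apart in first exon pairs (median 4895) and between 507 and 77531 bases in last exon pairs (median 7724).

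**Figure D2:**
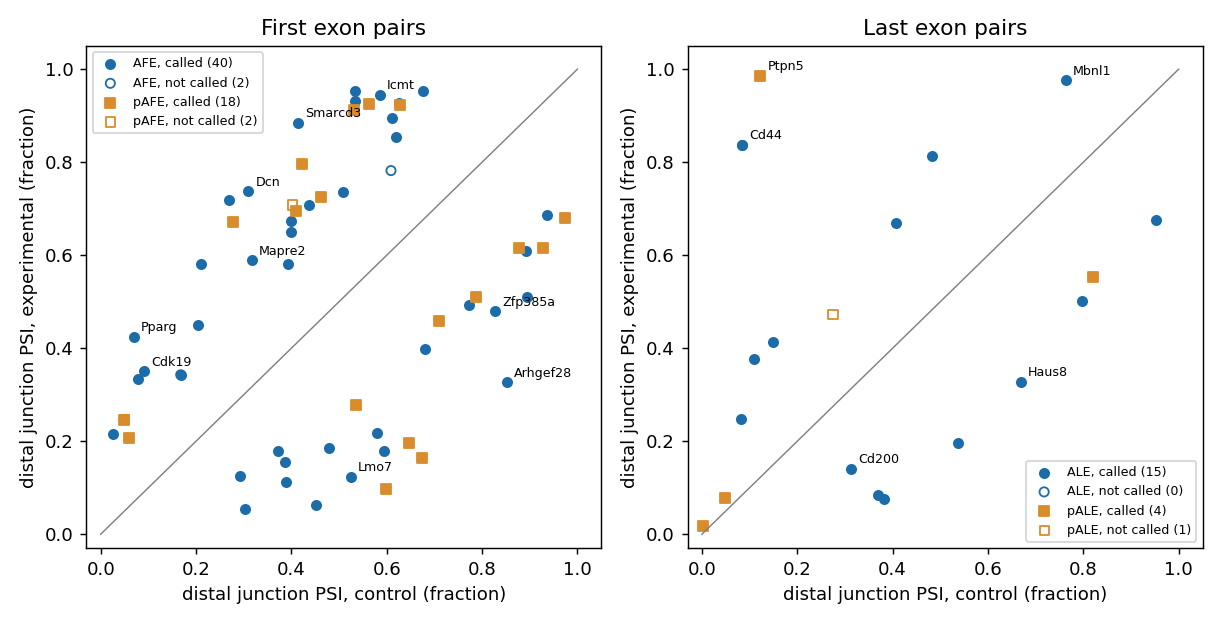
PSI of the distal junction (fraction) in the control group (horizontal) and the experimental group (vertical) for the 62 first exon pairs and the 20 last exon pairs; circles are annotated classes, squares putative ones, filled symbols called events, and the line marks equal use. Points lie on both sides of the line in both panels, with Smarcd3 moving from 0.414 to 0.885 and Arhgef28 from 0.852 to 0.327.

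First exon pairs in which both alternative exons are annotated as first exons are the clearest cases of promoter choice, and there were 9, of which 8 were called. An exon counted as a first exon if any annotated transcript starts in it, so it can be internal in other transcripts. Distal use rose in 7 (Cdk19, Dcn, Flrt2, Icmt, Nhsl1, Pparg and Zfp60) and proximal use in Gpank1. These genes other than Icmt were named after their values were seen. Cdk19, a kinase of the Mediator complex that links transcription factors to RNA polymerase II, moved on its distal exon from a PSI of 0.092 to 0.351. Flrt2, a cell-surface adhesion and guidance protein, went from 0.210 to 0.582 and switched its major form. Nhsl1 went from 0.611 to 0.896 over first exons 89238 bases apart. The Zfp60 sites were only 194 bases apart and their transcripts share an annotated start, so that pair is a choice of 5′ splice site within the annotation. In a further 14 pairs, all called, the proximal exon is annotated as a first exon and the distal one as internal, which sets an internal promoter against transcripts that start further upstream. Proximal use was higher in 8 of these and distal use in 6. The remaining first exon pairs held an unannotated exon (28), internal exons alone (6), or an internal proximal and a first distal exon (5).

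Dcn and Pparg need their levels beside them. Dcn encodes decorin, a matrix proteoglycan made by fibroblasts, and its distal exon went from a PSI of 0.310 to 0.738. Its TPM was 24.7, 4.17, 1.10 and listed at 0 in controls and 2.94, 3.29, 1.06 and listed at 0 in experimental libraries, so control 1 held most of it. Summed fibroblast markers, Dcn included, ran from 20.7 to 112 in controls and from 32.6 to 58.5 TPM in experimental libraries. Pparg encodes a nuclear receptor of lipid metabolism, and its distal exon went from 0.070 to 0.425. It was at 5.75, 4.49, 1.66 and listed at 0 in controls and at 1.38, 1.42, 1.25 and 1.25 TPM in experimental libraries. Of the 4 adipocyte markers only Fabp4 was above 1 TPM, and Adipoq, Cidec and Plin1 were listed at 0 in all libraries. Fabp4 was at 100, 307, 573 and 1129 in controls, rising from control 1 to control 4 where Pparg fell. In experimental libraries it was at 262, 71.1, 257 and 276 TPM. The part of these other cells in the change of exon use was not tested. Here as in all bulk samples, fewer cells of a type and less RNA per cell cannot be told apart.

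Smarcd3, a subunit of BAF chromatin-remodelling complexes, changed in both exon use and level. Its proximal first exon, coding in the annotation, fell from a PSI of 0.586 to 0.115, and the distal exon rose from 0.414 to 0.885. The annotated start codon differs between the forms. Smarcd3 was at 1.64, 1.72, 1.23 and listed at 0 in controls and at 3.13, 3.52, 4.35 and 3.25 TPM in experimental libraries. Every experimental library was above every control, and the level rose by 0.93 ± 0.17 on the log2(TPM + 1) scale (SE; adjusted p = 0.0196, limma). All its levels were low, which compresses the difference on this scale.

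Mapre2, which encodes the microtubule plus-end protein EB2, also moved to its distal exon, from 0.317 to 0.589. It was at 19.4, 20.0, 13.0 and 11.5 in controls and at 39.3, 28.4, 44.3 and 39.1 TPM in experimental libraries, and rose by 1.21 ± 0.22 on the log2 scale (SE; adjusted p = 0.0226, limma). Zfp385a, a zinc-finger protein, moved the other way, its proximal exon rising from 0.138 to 0.431 and the distal one falling from 0.828 to 0.480. Its TPM was 49.6, 52.5, 41.6 and 37.8 in controls and 96.5, 75.4, 94.9 and 74.3 in experimental libraries, a rise of 0.90 ± 0.18 on the log2 scale (SE; adjusted p = 0.0269, limma). A gain in level thus went with distal use in 2 of these genes and with proximal use in the third.

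Icmt, the methyltransferase that finishes the processing of prenylated proteins such as Ras, lost its proximal first exon almost wholly, from a PSI of 0.341 to 0.020, while the distal exon went from 0.586 to 0.945. Transcripts of the proximal exon are all annotated as noncoding. Icmt was at 16.99, 15.3, 17.5 and 16.8 in controls and at 6.16, 5.12, 9.83 and 7.13 TPM in experimental libraries, a fall without overlap (log2 difference -1.16 ± 0.20 SE; adjusted p = 0.0156, limma). Ift57, a component of the intraflagellar transport machinery of cilia, was at 6.67, 4.87, 4.04 and 3.93 in controls and at 0, 1.29, 1.18 and 0 as listed in experimental libraries. Its log2 difference was -1.45 ± 0.18 (SE; adjusted p = 0.00334, limma). In its pAFE event an unannotated proximal exon fell from 0.628 to 0.311 and the distal one rose from 0.277 to 0.672.

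In the 12 AFE genes with a RefSeq start in a matching annotated first exon, 15 alternative exons could be set beside a promoter sequence. In the 250 bases before those starts, GGGCGG on either strand was found in 10, CCAAT in 5 and TATAAA in 2, beside 32.7%, 33.8% and 12.4% of all 32851 RefSeq promoters. Counts of the dinucleotide CG ran from 3 to 40, beside a median of 6. Smarcd3 proximal and Palld proximal are shown because they differ: the first is rich in CG (38 in 250 bases) with no TATAAA, the second has 13 and holds TATAAA. Each line gives 120 bases upstream of the annotated exons from the RefSeq table (GRCm38.p6), 5′ to 3′ on the gene's strand, with GGGCGG and TATAAA in capitals.
Smarcd3 proximal (chr5:24602013-24602132, minus strand): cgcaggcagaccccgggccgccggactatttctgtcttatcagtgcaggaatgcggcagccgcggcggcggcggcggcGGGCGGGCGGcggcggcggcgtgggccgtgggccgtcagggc
Palld proximal (chr8:61591143-61591262, minus strand): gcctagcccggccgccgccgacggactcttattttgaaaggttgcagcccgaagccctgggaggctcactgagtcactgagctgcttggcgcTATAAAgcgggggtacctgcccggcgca

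Palld encodes palladin, an actin-bundling protein, and its distal exon, 93675 bases from the proximal one, went from a PSI of 0.509 to 0.735. Palld was at 29.4, 29.9, 22.9 and 18.4 in controls and at 43.1, 30.6, 36.7 and 30.2 TPM in experimental libraries, which did not overlap, but the difference did not pass (adjusted p = 0.265, limma). Several other genes of the actin cytoskeleton and of cell junctions held called pairs. Lmo7, a LIM-domain protein of adherens junctions, moved to its proximal exon, from 0.397 to 0.830, at levels of 47.6 to 84.4 in controls against 30.2 to 71.9 TPM in the experimental group. Macf1, which links actin to microtubules, moved to its distal exon, from 0.437 to 0.708, and so did Tln1, the integrin-binding protein talin, from 0.677 to 0.954. Both Macf1 exons are annotated as internal, and the Tln1 pair holds an unannotated exon, with sites 411 bases apart. Arhgef28, an exchange factor for RhoA, moved to its proximal exon, from 0.148 to 0.673, the largest change of a junction among AFE pairs. Its level was 1.91 to 9.04 in controls and from listed at 0 to 3.35 TPM in experimental libraries, which overlapped. Arhgef28, Lmo7, Macf1, Tln1 and Palld were named after their values were seen.

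Few last exon pairs set annotated last exons against each other. Both exons are annotated as last exons in 3 of 20, both are internal in 8, and at least one is unannotated in 6. An exon counted as a last exon if any annotated transcript ends in it, so it can be internal in other transcripts. For Haus8 the ends found belong to a processed transcript (proximal) and a retained-intron transcript (distal). The proximal Cd200 end belongs to a processed transcript. The 3 pairs with annotated last exons were all called and were named after their values were seen. Haus8, a subunit of the augmin complex that seeds spindle microtubules, moved to its proximal last exon, from 0.331 to 0.672. Cd200, a surface glycoprotein that restrains immune cells, moved to its proximal last exon, from 0.451 to 0.732. Mbnl1, a muscleblind-family splicing regulator, moved to the distal site, from 0.763 to 0.976. Haus8 levels were 4.18, 2.78, 1.51 and 1.53 TPM in controls, and of the experimental libraries only the third was above the floor, at 1.24 TPM (adjusted p = 0.158, limma). Mbnl1 and Cd200 overlapped between the groups, at 22.4 to 39.5 against 19.9 to 24.2 TPM and 5.17 to 8.31 against 4.93 to 10.5 TPM.

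Cd44, the hyaluronan receptor, held the largest change of a spliced junction among ALE events. Introns at the reference exon changed more in Tspear, with an E(dPSI) of 0.974 in the authors' deposited table, and in Zdhhc6, with 0.785. The distal Cd44 junction went from a PSI of 0.084 to 0.838 and the proximal one from 0.254 to 0.026. Both alternative exons are annotated as internal only, and the module also holds a cassette exon, so by the annotation the distal junction skips internal exons and neither form has a last exon there. A second ALE event shares the distal junction, and an AFE event at the other end of the skipped stretch went from 0.068 to 0.627. Cd44 was at 43.1, 32.8, 35.4 and 24.9 in controls and at 32.4, 25.98, 34.3 and 40.3 TPM in experimental libraries, with full overlap (adjusted p = 0.963, limma). Ctnnd1, which encodes p120 catenin of adherens junctions, had an AFE junction that went from 0.771 to 0.324 and an ALE junction that went from 0.580 to 0.120, again in a module with a cassette exon. Epb41, which encodes the membrane skeleton protein 4.1R, had an AFE junction that went from 0.196 to 0.761 in such a module, at 41.5 to 54.0 in controls against 39.5 to 51.5 TPM in the experimental group. Ctnnd1 was named after its values were seen.

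Ptpn5, which encodes a tyrosine phosphatase best known from brain, had the largest change among pALE events, its distal junction going from 0.122 to 0.986. Ptpn5 was listed at 0 in all 8 libraries, so that PSI came from a gene at 1 TPM or less. The same held for Ulk4, a gene of the ULK kinase family, whose pAFE junction went from 0.007 to 0.983. Tspear, whose single AFE junction went from 0.995 to 0.054, was above 1 TPM in control libraries 1 and 2 only, at 1.55 and 1.71 TPM. In Taf4b, a subunit of TFIID, a pALE junction went from 0.003 to 0.614 at levels between listed at 0 and 1.65 TPM. Of the 122 genes with an event that are in the expression table, 93 were above 1 TPM in all libraries, 21 in some and 8 in none. Called events in the 93 numbered 96 of 138.

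In the junction-against-intron events, the intron was higher more often than lower by count. Of 42 called events the spliced junction was lower in the experimental group in 32 and higher in 10. Where the intron had a value (41), it was higher in 31 events of 27 genes and lower in 10 events of 10 genes. Intron and junction are shares of the same reads at the reference exon, so their opposite signs follow largely from how PSI is built and are no separate observation. Last exon classes gave 22 of 27 with the intron higher and first exon classes 9 of 14. The direction over all intron entries was not worked out here, so these counts are not read as a trait of first and last exon events. Epcam, an epithelial adhesion molecule, had its intron rise from a PSI of 0.024 to 0.279, Anxa1, a phospholipid-binding annexin, from 0.094 to 0.394, and Crabp2, a retinoic acid-binding protein, from 0.065 to 0.374. Ly6g6c, a Ly6-family surface protein, went from 0.001 to 0.600. These 4 are abundant, Epcam at 206 to 472 in controls and 168 to 309 TPM in the experimental group and Ly6g6c at 1060 to 1146 in controls and 1339 to 1914 TPM in the experimental group. They were named after their values were seen.

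**Figure D3:**
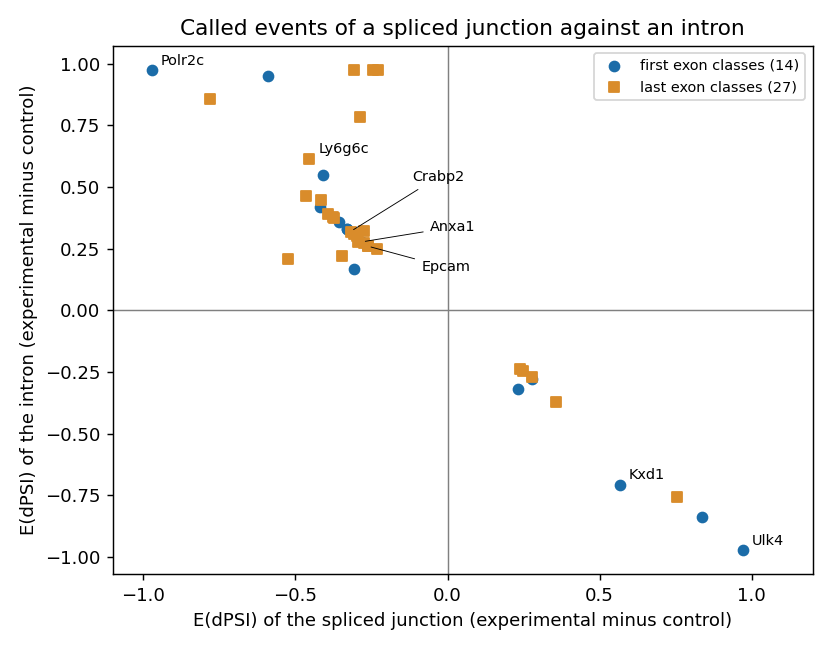
E(dPSI) of the spliced junction (horizontal) and of the intron at the same reference exon (vertical), both experimental minus control, for the 41 called junction-against-intron events with a value for the intron. The 31 events at upper left have a higher intron and a lower spliced junction; the 10 at lower right have the reverse. Both axes are shares of the same reads, so the slope of the points is largely set by how PSI is built.

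Several of the largest changes were of this kind. Polr2c, which encodes a subunit of RNA polymerase II, had a pAFE junction that fell from a PSI of 0.983 to 0.014 while its intron went from 0.008 to 0.985, at 14.0 to 18.9 in controls against 12.4 to 13.7 TPM in the experimental group. Samd4b, an RNA-binding protein, had an intron that went from 0.006 to 0.862 in a pALE event. The reverse was seen in Ccnh, the cyclin of the CDK-activating kinase in TFIIH, whose intron went from 0.861 to 0.010, and in Kxd1, a subunit of the lysosome-positioning BORC complex, whose intron went from 0.712 to 0.001. In Tmem147os, a transcript opposite Tmem147, the intron went from 0.814 to 0.001. The Dennd1b junction, in an exchange factor for a Rab GTPase, went from 0.988 to 0.315, and its intron had no value. In Esrp1 itself the spliced AFE junction hardly moved, from 0.243 to 0.265, while the intron at that exon went from 0.136 to 0.434.

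Most genes with an event did not pass a test of level. Of 133, 106 were tested and 9 passed, which is 8.49% beside 2.46% of all 10682 genes tested. By direction, 3 were higher beside 0.917% of all genes and 6 were lower beside 1.54%. Esrp1, the gene deleted by design, is among the 6 and so among the 9. The median log2 difference was -0.27 over the 106 and -0.18 over all genes. Quantile normalization brought the median of all genes to 0.02, and 14 genes with an event then passed, beside 3.61% of all genes. Of these 14, 8 were higher, beside 2.52% of all genes, and 6 were lower, beside 1.1%. Over all genes the calls were 37.3% higher in the main test, 69.7% higher after quantile normalization and 73.5% higher after centring each library on its median. In the main test the ranges of control and experimental libraries did not overlap in 28 of the 106, beside 12.6% of all genes.

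**Figure D4:**
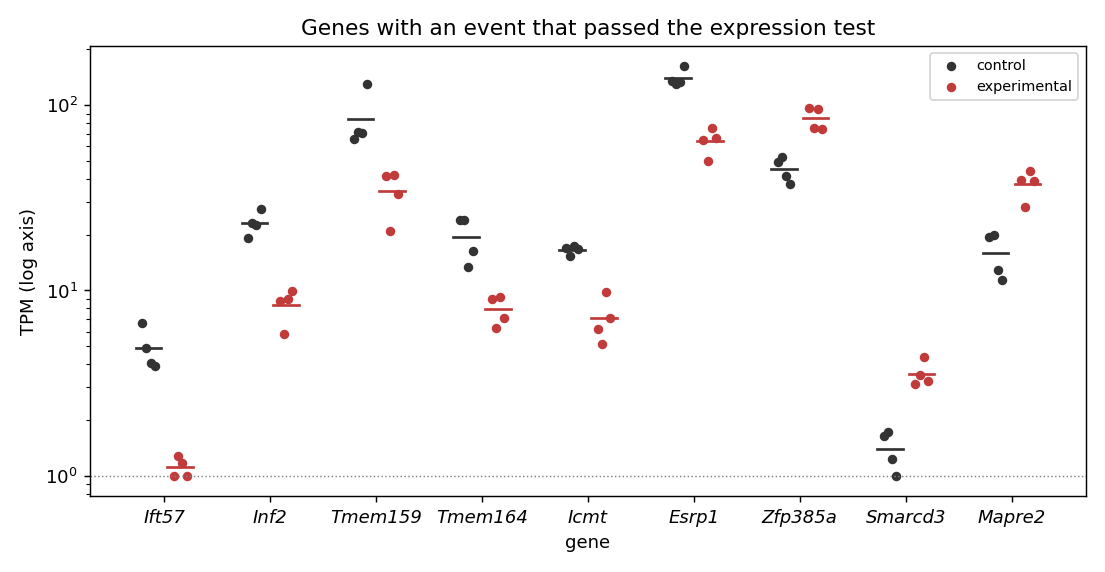
TPM (log axis) of the 9 genes with an event that passed the expression test, in 4 control and 4 experimental libraries each; points are libraries, bars are group means, values listed at 0 are drawn at the floor of 1 TPM (dotted line). The groups do not overlap in any of the 9 genes.

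The other genes that passed had events that were not called or that involved an intron. Inf2, an actin-assembling formin, was at 19.2, 23.04, 22.7 and 27.5 in controls against 8.83, 5.83, 9.01 and 9.90 TPM in the experimental group (log2 difference -1.37 ± 0.20 SE; adjusted p = 0.00770, limma), and its ALE junction went from 0.002 to 0.173 without being called. Tmem164, a transmembrane protein, was at 23.9, 24.03, 13.4 and 16.3 in controls against 8.96, 6.30, 9.18 and 7.15 TPM in the experimental group (log2 difference -1.17 ± 0.22 SE; adjusted p = 0.0257, limma), and its AFE junction went from 0.386 to 0.548 without being called. Tmem159, a lipid droplet assembly factor, was at 65.5, 71.6, 71.2 and 131 in controls against 41.3, 21.0, 42.2 and 33.3 TPM in the experimental group (log2 difference -1.26 ± 0.28 SE; adjusted p = 0.0453, limma). Its intron went from 0.293 to 0.036. Leaving out any one of control 3 or experimental 1, 2, 3 or 4 reduced the 9 genes to 4, 4, 5, 4 and 3. Without experimental 2 and 4, the libraries with the higher mitochondrial share, limma called 0 of the 106 genes, with 24 at an unadjusted p under 0.05. Without controls 3 and 4 it called 29.

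Most called pairs lay in genes whose level did not pass limma. Of the 77 called pairs, 61 lay in tested genes, 5 in genes that passed (Icmt, Ift57, Mapre2, Smarcd3 and Zfp385a; 8.20% of the 61, beside 2.46% of all genes) and 56 in genes that did not. Of those 56, 5 lay in genes that the authors' deposited table of lower genes lists, namely Haus8, Lancl2, Serinc2, Sytl2 and Tln2. Serinc2, a serine incorporator, combined a proximal switch (PSI 0.274 to 0.569) with 58.5, 75.0, 105 and 210 in controls against 54.5, 16.8, 32.1 and 32.2 TPM in the experimental group, which did not overlap and did not pass (adjusted p = 0.0742, limma). Serinc2 was named after its values were seen. The authors' deposited table of genes with lower expression in the experimental group lists 12 of the 133 genes, among them Ift57 (log2 fold change -1.96), Inf2 (-1.33), Tspear (-1.76) and Serinc2 (-1.67). The share of all genes that it lists was not worked out here. The 12 and the 5 are therefore not a result about genes with an event.

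**Figure D5:**
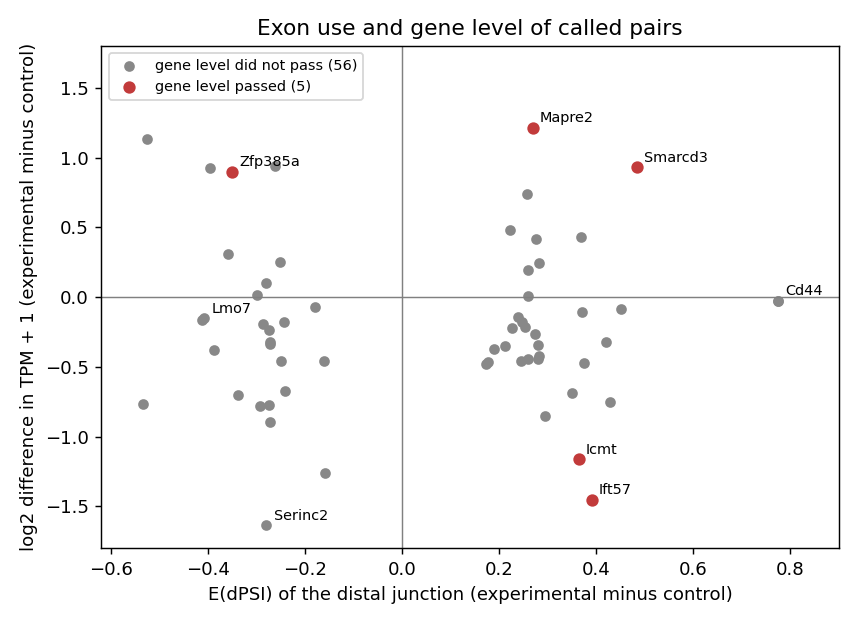
E(dPSI) of the distal junction (horizontal) and difference in gene level, log2(TPM + 1) (vertical), both experimental minus control, for the 61 called pairs in tested genes; red points are the 5 pairs whose gene passed the expression test. Rises and falls in level occur on both sides of the vertical line.

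Among the factors that set transcript starts and ends, none passed, beside 2.46% of all genes, so that 0 calls in lists of this size is near the background. None of 25 cleavage and polyadenylation factors passed (limma; 4 at an unadjusted p under 0.05; median log2 difference -0.16, range -0.59 to 0.31). None of 23 core promoter factors passed either (limma; 4 at an unadjusted p under 0.05; median -0.24, range -0.66 to 0.24). Over all genes 16.9% had an unadjusted p under 0.05. Both medians lay near that of all genes, -0.18. The GT-rich letters bound by ESRP1 were looked for in the 100 exon bases next to the alternative splice site, on the RNA strand. GGTGG was present in 7 of 60 alternative exons of first exon pairs (11.7%) and 2 of 19 of last exon pairs (10.5%). The share was 15.7% and 12.3% in first and last exons of annotated protein-coding transcripts. The alternative exons include ones annotated as internal, so the sets compared are not alike. TGGTGG, which contains GGTGG, was present in 3 of 60 and 0 of 19, beside 5.11% and 5.84%. On the opposite strand GGTGG was present in 15 of 60 and 6 of 19, beside 14.9% and 14.8%. In the last 50 bases of annotated alternative last exons the polyadenylation signal AATAAA was present in 3 of 8 and ATTAAA in 0 of 8. The shares in ends of annotated protein-coding transcripts were 42.2% and 12.5%. The 8 include processed, retained-intron and antisense transcripts (in Adprm, Cd200, Gm50222 and Haus8), so the sets compared are not alike.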

How the data were processed

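The deposited MAJIQ table gives, per the file headers, a PSI fraction for each group, the expected difference between groups and a score, the posterior probability of a difference of 0.15 or more in either direction. Group values pool libraries. The authors' expression table holds log2 TPM, and any value not above 1 TPM appears there as 0. The design had assumed log2(TPM + 1), so values were first turned back into TPM. The authors' deposited table of lower genes gives a mean count signal, a log2 fold change with its error and score, and p-values. The builds mm10 and GRCm38 and the tools Salmon 0.14.0, SAMtools 1.9, STAR and DESeq are given in the submitters' processing notes.

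TPM was floored at 1 and fitted as log2(TPM + 1) with limma 3.58.1 in R 4.3.3 (group only, two-sided, eBayes with a variance trend, p adjusted by Benjamini-Hochberg), over genes with a mean of at least 1 TPM. Fold changes on this scale understate changes of low genes. On simulated data with 10682 genes, a log2 change of 1 or 2 was given only to genes with a mean of at least 5 TPM. There limma found 53% of genes given a change of 1 and 94% of genes given a change of 2, and 5.16% of its calls were false. The simulated noise was independent for each gene and library. Differences shared by whole libraries were absent from it, so these rates need not hold for the real data. Exons and junctions were looked up in GENCODE M21 (GRCm38), and promoters in RefSeq. Windows of 250 bases on each side of splice sites had been planned; no genome sequence was used here, so 100 exon bases were read from annotated transcripts. No label says that libraries came from separate litters, so p-values measure the spread between these libraries.

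Genes named are the 12 called events of largest absolute E(dPSI), 1 per gene, the largest of each class and every gene that passed limma, passing over identifier-only names; others are marked where they appear. Events, genes and lists were chosen with earlier results of these data known. Alternatives are described in the closing section.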

Additional observations from a re-analysis of the deposited data

Results flagged for a closer look

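In 30 groups of 4 libraries of the named genes (those with no value listed at 0), 2 held a library that stood apart by Dixon's test of gap over range; chance flags about 1 in 20 groups. Esrp1 was at 162 TPM in control 4, beside 131 to 135 TPM in the other controls. Tmem159 was at 131 TPM in the same library, beside 65.5 to 71.6 TPM.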

How the results depend on the processing

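The 263 genes called over the whole table and the 9 with an event depended most on which libraries were used. Leaving out 1 library gave between 85 (without experimental 3) and 581 (without control 4) genes in all, and between 3 and 12 with an event. Alternatives chosen after seeing the data gave 2544 and 29 without controls 3 and 4, 498 and 14 without controls 1 and 2, and 15 and 0 without experimental 2 and 4. Genes with an event numbered 14 after quantile normalization and also after median centring, 8 of the 9 main calls among them. Pseudocounts of 0.1 and 0.5 TPM, no filter, a mean of at least 5 TPM and no variance trend gave between 6 and 9. None of the 9 genes changed direction under any of these settings; Calls were lost under 11 of 18 settings for Tmem159, 7 of 18 for Tmem164 and for Zfp385a, 5 of 18 for Mapre2, 5 of 17 for Smarcd3, 4 of 18 for Icmt, and 1 each for Esrp1, Inf2 and Ift57 (without experimental 2 and 4). Calls of Zfp385a, Mapre2, Smarcd3 and Icmt were lost only where libraries were left out.

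Called events fell from 138 to 52 without events that hold a de novo entry, and those with distal PSI higher from 52 to 29, since fewer events remained. Junction-against-intron events such as Polr2c, Ccnh and Kxd1 were among those left out. Restricting to pairs, chosen after seeing the data, left 77 called. A probability of at least 0.90 gave 142 and one of at least 0.99 gave 96. Counting the intron at the same reference exon, also chosen after seeing the data, gave 142. The share of called first exon events with distal PSI higher was 50.7% and stayed between 50.7% and 61.1% under the alternatives run; for last exon events it was 37.2% and ranged from 32.4% to 55.6%, the latter in pairs. Of the 21 named genes, 14 had a mean of at least 5 TPM in both groups. No paired analysis was possible because the columns of the expression table carry no replicate number that matches the labels. The authors name these values as not batch corrected, and no batch term was fitted. PSI is per group, so no library could be left out of it. TPM gives no depth, which leaves the precision of most low genes unknown. Mean counts were at hand only for genes that the authors list as lower, such as Ift57 (394) and Haus8 (282).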

Other observations

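The genes were also sorted into functions by textbook knowledge, with their names known, and the examples below were chosen after their values were seen. Microtubule and membrane traffic genes (16) held 15 called events of 16 with a value, with distal use higher in 6 of their 10 called pairs and proximal use in 4. They include Dnm1l, the dynamin of mitochondrial fission, whose distal junction went from a PSI of 0.205 to 0.449, and Ndel1, a dynein regulator, whose distal junction went from 0.399 to 0.674. In both genes the annotation gives the 2 alternative exons as internal ones, although the table classes the events as alternative first exons. Transcription and chromatin genes (16) held 13 called of 20, with 5 distal and 3 proximal of 8 called pairs. In Nfix, a nuclear factor I family member, the distal junction fell from 0.536 to 0.279, and the junction to an unannotated proximal exon, at 0.306 and 0.559, had a probability of 0.925 and was not called. In Kdm7a, a histone demethylase, the proximal junction rose from 0.227 to 0.507.

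Signalling genes (15) held 14 called of 18, with 6 distal and 5 proximal of 11 called pairs. Metabolism and transport genes (21) held 22 called of 29, with 5 distal and 8 proximal of 14 called pairs. Adhesion and junction genes (6) held 9 called of 9, with 4 distal and 1 proximal of 5 called pairs. The distal pairs include both Cd44 ALE events, which share a distal junction. Actin cytoskeleton genes (11) held 11 called of 13, with 4 distal and 3 proximal of 7 called pairs. Genes of RNA processing, translation and protein turnover (10) held 10 called of 11, with 3 distal and 1 proximal of 5 called pairs. The remaining 38 genes, of other or uncertain function, held 44 called of 53. These shares stand beside 81.7% for all first and last exon events with a value, and no difference between functions was tested. Both kinds of event occurred in 15 of the 133 genes, and 11 of the 133 had no entry in the expression table.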
